A study of Capra hircus with 13 samples.

Results

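Translation initiation factors were followed from the mature oocyte to the 8-cell stage of goat embryos, and in 8-cell stage embryos after knockdown of *YTHDF2*, which encodes a reader of m6A-modified mRNA. Members are all genes whose name starts with EIF and a number from 1 to 6, without *EIF4ENIF1* and *EIF4A3*, which left 49 of the 51 matching names among the 18138 gene names that all tables list once. Values come from 13 Smart-seq2 libraries of polyadenylated RNA of *Capra hircus*. Untreated material gave 3 libraries each of MII oocytes, which are arrested in meiosis before fertilization, of 4-cell stage and of 8-cell stage in vitro fertilized embryos. Injected material gave 2 libraries of 8-cell stage embryos from zygotes given negative control (NC) siRNA and 2 from zygotes given *YTHDF2* siRNA, at 20 µM and 8 h after fertilization, each library from pooled embryos. NC is a universal control siRNA. The titles of the 2 control libraries read WT, not NC siRNA. That they were injected, and how, is taken from the study's methods for the knockdown, which give 20 µM for the *YTHDF2* siRNAs. The untreated libraries stem from earlier studies of the same group, and which study gave which library is not stated, so stage and study cannot be told apart. Nothing in the labels says that replicates came from separate cultures, so p-values measure the spread between these libraries, which may be technical.

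Initiation brings the ribosome to the start codon of an mRNA. eIF2 carries the initiator tRNA to the small ribosomal subunit as a complex with GTP, and eIF2B recharges eIF2 with GTP. eIF1, eIF1A and eIF3 sit on the small subunit, and eIF3 also links it to the mRNA. eIF4E binds the cap of the mRNA, eIF4G is the scaffold and eIF4A the helicase of the cap-binding complex eIF4F, and eIF4E-binding proteins keep eIF4E from eIF4G. eIF5 triggers the hydrolysis of GTP on eIF2, and eIF5B joins the large subunit. Oocytes and early embryos translate stored maternal mRNAs before their own genome is active, and carry an oocyte form of the cap-binding protein, *EIF4E1B*.

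Values are fragments per kilobase of exon model, scaled to the mapped fragments of the library (FPKM), a level per length that can be set beside that of another gene in the same library. The untreated libraries held 26853876 to 42495116 fragments, while the depth of the injected libraries is unknown. The genes shared by the untreated tables held 64.7 to 66.2% of the fragments of the MII libraries and 94.6 to 96.8% of those of the embryo libraries, and the MII table lists 18880 gene names against 21869 in the embryo tables. Replicates correlated by 0.946 to 0.978 in the MII oocytes and 4-cell stage embryos, but 8-cell replicate 1 correlated with the other two by 0.854 and 0.898. Of 12 oocyte markers, 10 were listed, and all of these were above 0 in every library. Their levels summed to 1535 to 3452 FPKM in the untreated and 481 to 1901 FPKM in the injected libraries. Genes that mark activation at the 8-cell stage summed to 10.3 to 14.1 FPKM in MII oocytes, 50.9 to 115 in 4-cell, 315 to 1087 in untreated 8-cell and 2771 to 3090 in injected embryos. These sums rest on 4 listed genes in the untreated and 5 in the injected libraries. Of 14 markers of cumulus and granulosa cells, 11 were listed for the untreated and 12 for the injected libraries, with 6 to 11 above 0. They summed to 41.6 to 62.8 FPKM in MII oocytes, 57.4 to 69.2 in 4-cell, 87.1 to 130 in untreated 8-cell, 61.5 and 64.4 in NC siRNA and 79.9 and 81.1 FPKM in *YTHDF2* siRNA embryos. Of them *AMH* was at 0 in the untreated libraries and *FSHR* at most 0.248 FPKM, while *STAR* had means of 30.8, 34.8 and 58.9 FPKM and *HAS2* of 9.31, 18.3 and 24.8 FPKM in MII oocytes, 4-cell and 8-cell embryos. Sperm markers, with 4 listed for the untreated and 5 for the injected libraries, summed to 34.1 FPKM at most. The targeted gene, *YTHDF2*, measured 112 and 159 FPKM with NC siRNA and 8.07 and 4.47 FPKM with *YTHDF2* siRNA (log2 fold change -4.25, SE 0.43, limma adjusted p = 0.000367). In untreated embryos it measured 3.38 to 5.69 FPKM at the 4-cell stage and 10.8, 16.7 and 12.5 FPKM at the 8-cell stage. The antisense strands of both siRNAs are shown because they define the knockdown, with the seed (bases 2 to 8) in capitals.
s28148: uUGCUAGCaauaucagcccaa
s28147: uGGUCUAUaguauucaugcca

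In MII oocytes, the initiation factors spanned levels from under 1 FPKM up to those of *EIF4E*, which measured 399, 404 and 360.3 FPKM, the highest mean of the 49 members. *EIF1*, which helps to select the start codon, measured 441, 354 and 320.1 FPKM, and the helicase *EIF4A2* 336, 315 and 349 FPKM, so that these neighbours in the order overlapped. The oocyte form *EIF4E1B* came 11th with 110.2, 88.6 and 113 FPKM. The lowest members were at or under about 1 FPKM. *EIF2B5*, the catalytic subunit of eIF2B, was at 0.064, 0.838 and 0.369 FPKM from 6, 81 and 43 fragments, and *EIF4EBP1*, a regulated inhibitor of eIF4E, at 0.327, 0.874 and 1.25 FPKM from 4, 11 and 19 fragments.

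At the 4-cell stage *EIF4E* measured 1196.5, 950.2 and 1175 FPKM, apart from every other member, and *EIF3M* followed with 603, 555 and 763 FPKM. At the 8-cell stage *EIF4E* measured 684, 833 and 1101 FPKM and *EIF3M* 359, 493 and 463 FPKM. *EIF4E* alone held 12.5 to 12.8% of the summed FPKM of the initiation factors in MII oocytes, 22.9 to 27.0% at the 4-cell stage and 16.6 to 25.4% at the 8-cell stage. Subunits of eIF3, which act in 1 complex, differed widely in mRNA level in every library. The lowest eIF3 mRNA of an untreated library measured 0.551 to 3.40 FPKM and the highest 211 to 763 FPKM, and the SD of log2 values over the 12 subunits was 2.13 to 2.90. *EIF3F* was the lowest in 7 of the 9 untreated libraries.

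**Figure D1:**
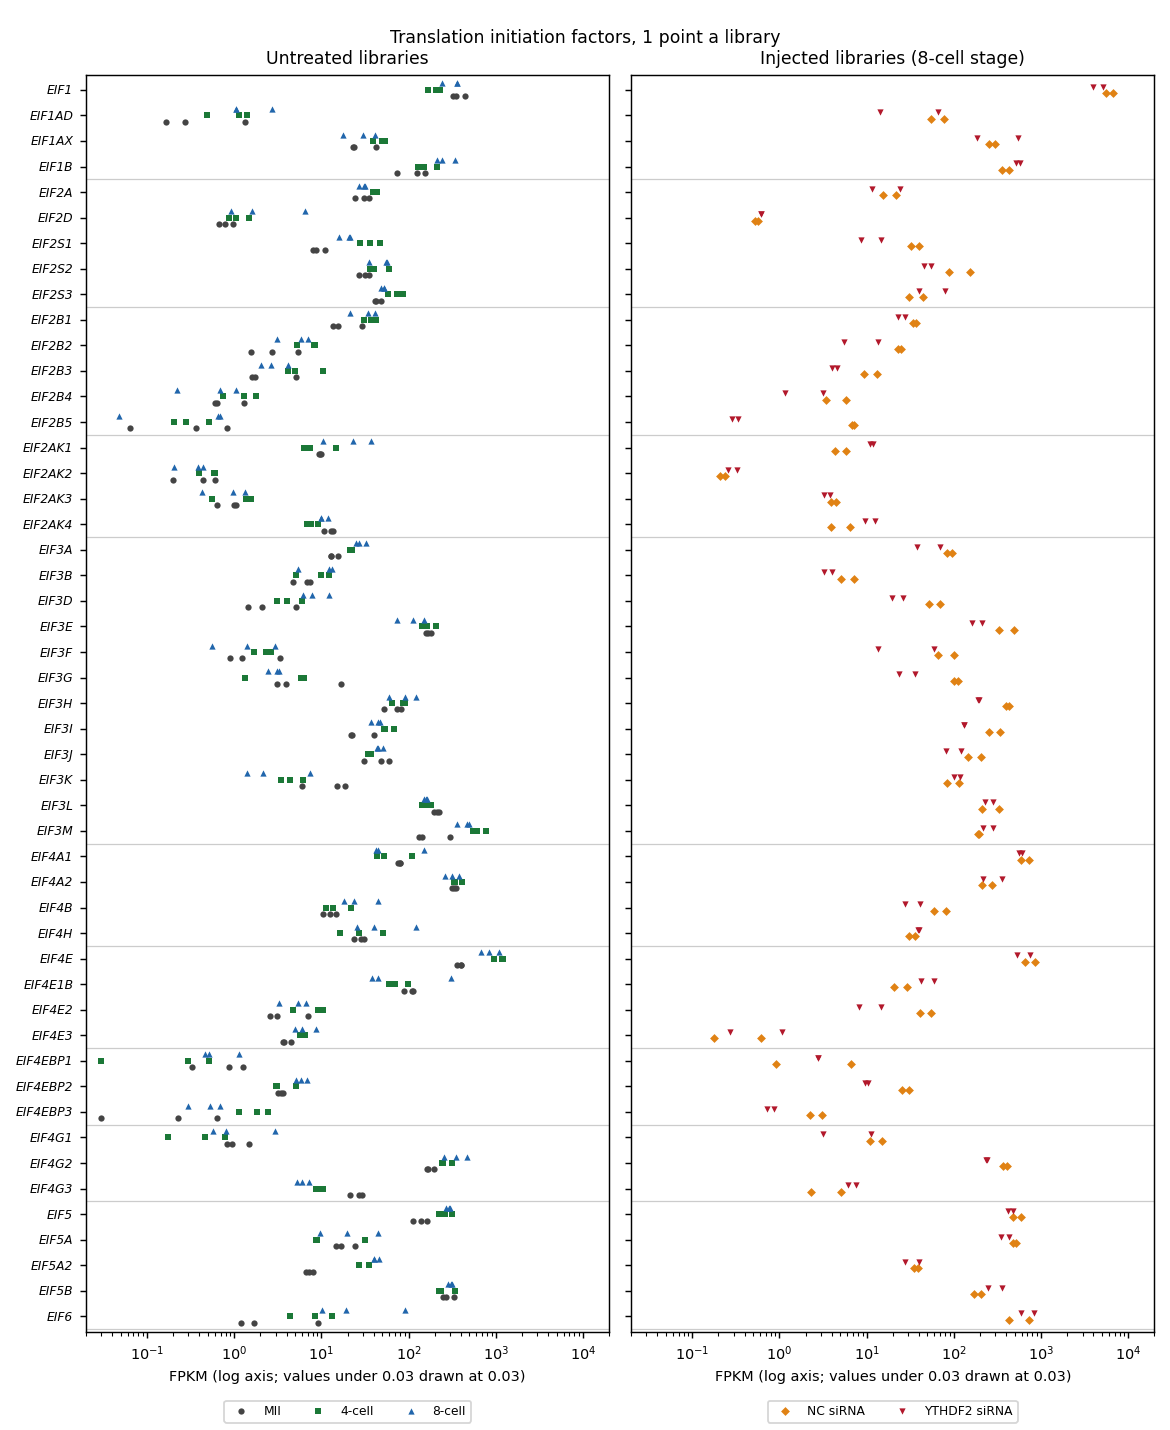
FPKM of the 49 initiation factors on a log axis, 1 point a library, in the untreated libraries (left) and the injected 8-cell stage libraries (right), grouped by factor. *EIF4E* holds the highest points of the untreated panel, *EIF2B5* and *EIF4EBP1* are among the lowest, and *EIF1* reaches 6785 FPKM in the injected panel.

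Between the MII oocytes and the embryo stages, FPKM of several factors rose. Among them were the cap-binding protein *EIF4E*, the eIF2 subunit *EIF2S1*, the eIF3 subunit *EIF3M* and *EIF5A2*, while FPKM of the scaffold *EIF4G3* fell. Of the 49 members, 43 had a mean of at least 1 FPKM and were tested. *EIF2AK2*, *EIF2AK3*, *EIF2B4*, *EIF2B5*, *EIF4EBP1* and *EIF4EBP3* were too low. With limma on log2(FPKM + 1) and a Benjamini-Hochberg adjusted p below 0.05 across 9090 genes, 9 members were higher at the 4-cell stage than in MII oocytes, where 24.7% of all tested genes were, and 3 were lower, against 6.42% of all genes. At the 8-cell stage 11 were higher, against 27.3% of all genes, and 3 were lower, against 10.0%. The lower members numbered 1 at the 4-cell stage without MII replicate 1 (3.37% of all genes), and 1 at the 8-cell stage without MII replicate 1 (6.92%), MII replicate 2 (7.58%) or 8-cell replicate 3 (7.51%). The members' median log2 fold change (log2FC) of FPKM + 1 was 0.38 in 4-cell and 0.55 in 8-cell embryos, beside 0.29 and 0.37 over all genes. With a library dropped, it fell below that of all genes in some fits and stayed above it in others. It was 0.18 beside 0.20 in 4-cell embryos without 4-cell replicate 2, and 0.32 beside 0.41 in 8-cell embryos without 8-cell replicate 3. With voom on recovered fragments it was -0.07 and 0.07, beside -0.18 and -0.11 over all genes. Both comparisons use the same MII libraries, so their results are not independent. Beside these calls, the cumulus and granulosa markers *HAS2* (limma adjusted p = 0.00599 and 0.000746) and *CYP19A1* (limma adjusted p = 0.0106 and 0.0066) were also higher in 4-cell and 8-cell embryos. Of the sperm markers *ODF2* was higher (limma adjusted p = 0.0448 and 0.0228). Of the oocyte markers *GDF9* was higher (limma adjusted p = 0.0138 and 0.0297) and *FIGLA* lower (limma adjusted p = 0.0442 and 0.0417) at both stages, and *ZP2* higher in 8-cell embryos (limma adjusted p = 0.0359). The part of such markers in the results was not tested. In these libraries of whole oocytes and embryos, a lower level cannot be told apart from fewer cells with the mRNA. FPKM is a share of the polyadenylated RNA of a library, so amount and polyadenylation of an mRNA cannot be told apart either.

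How the libraries are scaled sets part of these counts. The median of all genes at the 4-cell stage was 0.29 as deposited, 0.04 with quantile normalization, -0.13 with FPKM summing to the same total and -0.18 with voom on the recovered fragments. At the 8-cell stage it was 0.37 as deposited, and -0.11 to 0.06 with the rescalings. Each call of the stages and the knockdown given below kept its direction under every rescaling run. Under all 4 rescalings, *EIF2S1*, *EIF3M*, *EIF4E* and *EIF5A2* passed the test as higher at the 4-cell stage, and *EIF5A2* at the 8-cell stage. *EIF1*, *EIF2AK4* and *EIF4G3* passed as lower at the 4-cell stage under all 4, and *EIF3K*, *EIF3L* and *EIF4G3* at the 8-cell stage.

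**Figure D2:**
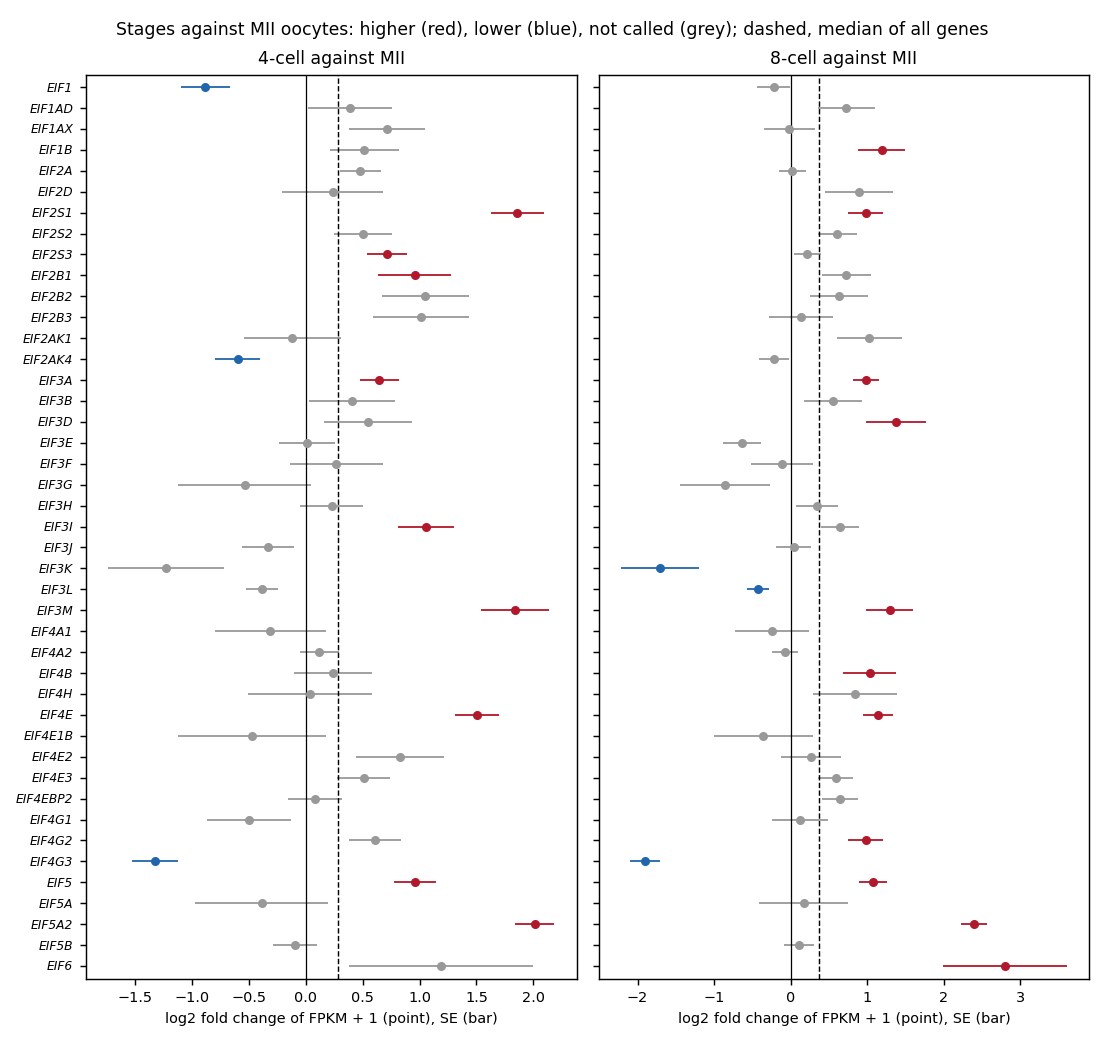
Log2 fold change of FPKM + 1 against MII oocytes (points) with its SE (bars) for the 43 tested members at the 4-cell (left) and 8-cell stage (right). Red points passed the test as higher and blue points as lower; the dashed line is the median of all tested genes, at 0.29 and 0.37, and *EIF4G3* lies far to its left in both panels.

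Among the eIF2 genes, *EIF2S1*, the alpha subunit that the eIF2 kinases phosphorylate, measured 8.62, 11.2 and 8.08 FPKM in MII oocytes, 28.0, 36.0 and 46.5 FPKM at the 4-cell stage, and 16.0, 21.2 and 20.7 FPKM at the 8-cell stage. The groups did not overlap, with the 4-cell libraries highest. Against MII oocytes the log2FC was 1.86 in 4-cell embryos (SE 0.23, limma adjusted p = 0.000546) and 0.98 in 8-cell embryos (SE 0.23, limma adjusted p = 0.00926), and the latter missed the threshold in all 4 rescalings (0.52 to 0.63). From the 4- to the 8-cell stage the log2FC was -0.88 (SE 0.23, limma adjusted p = 0.048), a call that was lost whichever library was dropped and in 3 of the 4 rescalings. The gamma subunit *EIF2S3* measured 48.1, 42.9 and 40.8 FPKM in MII oocytes and 87.2, 58.7 and 74.7 FPKM at the 4-cell stage, a log2FC of 0.71 (SE 0.18, adjusted p = 0.0137). That call was lost without MII replicate 3 and in each rescaling, where the value was 0.18 to 0.35. The beta subunit *EIF2S2* ranged from 27.0 to 59.3 FPKM over the 9 libraries and was not called at either stage.

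Of the 5 eIF2B subunits, *EIF2B1* measured 13.6, 29.4 and 15.5 FPKM in MII oocytes and 30.8, 42.6 and 37.3 FPKM at the 4-cell stage. The log2FC of 0.96 (SE 0.32, limma adjusted p = 0.0487) ran from 0.75 to 1.28 when single libraries were dropped, missed the threshold without MII replicate 1 or 3, any 4-cell library or 8-cell replicate 3, and passed under none of the rescalings. *EIF2B2* and *EIF2B3* stayed between 1.58 and 10.5 FPKM and were not called. Compared as log2(FPKM + 1), MII replicate 2 was over 2-fold above the mean of the other MII libraries for *EIF2B2* and *EIF2B3*. That library was also over 2-fold above for *EIF3D*, *EIF3F*, *EIF3G*, *EIF3M*, *EIF4E2* and *EIF6*. It also had the highest summed oocyte markers of the MII libraries, 2493 against 1535 and 1568 FPKM, and the part of this in the results was not tested.

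The eIF2 kinases shut down initiation under stress by phosphorylating eIF2. *EIF2AK4*, which senses a lack of amino acids, measured 13.5, 13.0 and 10.8 FPKM in MII oocytes and 6.87, 9.24 and 7.52 FPKM at the 4-cell stage, without overlap. The log2FC was -0.60 (SE 0.19, limma adjusted p = 0.0421), and the call was lost without any of the MII libraries, 4-cell replicate 1 or 3, or 8-cell replicate 2 or 3 (-0.71 to -0.52). *EIF2AK1*, the kinase that responds to heme, measured 36.9, 10.5 and 22.9 FPKM at the 8-cell stage against 9.39 to 10.01 FPKM in MII oocytes, and was not called. *EIF2AK2*, the kinase activated by double-stranded RNA, stayed at 0.197 to 0.606 FPKM, and *EIF2AK3*, the kinase of the endoplasmic reticulum, at 0.426 to 1.55 FPKM.

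Of the 12 eIF3 subunits, 3 were higher and 0 lower at the 4-cell stage, and 3 were higher and 2 lower at the 8-cell stage. At an unadjusted p under 0.05 the number of eIF3 genes passing was 5 and 7, both directions counted, where 42.5 and 47.1% of all genes passed. With 24.7 and 27.3% of all genes called higher, the eIF3 counts were near those of all genes. *EIF3M* measured 130.4, 299 and 141 FPKM in MII oocytes, and each embryo library lay above these. The 4-cell embryos had a log2FC of 1.84 (SE 0.30, limma adjusted p = 0.00204) and the 8-cell embryos one of 1.29 (SE 0.30, limma adjusted p = 0.00876), the latter called under 1 of the 4 rescalings. *EIF3A*, the largest subunit and a scaffold of the complex, rose from 12.9, 13.0 and 15.5 FPKM in MII oocytes to 21.4, 22.3 and 22.5 FPKM in 4-cell embryos (log2FC 0.64, SE 0.17, limma adjusted p = 0.0191) and to 25.1, 32.7 and 27.1 FPKM at the 8-cell stage (0.98, SE 0.17, adjusted p = 0.00202). The rescalings left the 4-cell value at 0.12 to 0.29 and not called, and it was also not called without MII replicate 1 or 2 or 4-cell replicate 3. The 8-cell value was called under 1 of the 4 (0.49 to 0.62). *EIF3I* measured 21.8, 40.6 and 22.7 FPKM in MII oocytes and 52.1, 53.9 and 68.1 FPKM in 4-cell embryos (1.06, SE 0.25, limma adjusted p = 0.0111), and passed under none of the rescalings (0.53 to 0.69) and not without MII replicate 1.

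Other eIF3 subunits went down. *EIF3K* measured 15.1, 18.5 and 6.02 FPKM in MII oocytes and 2.14, 7.35 and 1.42 FPKM at the 8-cell stage, so the groups overlapped at their edges. The log2FC was -1.71 (SE 0.51, limma adjusted p = 0.0262), and the call was lost without MII replicate 1 or 2 or 8-cell replicate 1 or 3 (-2.24 to -1.35). *EIF3L*, which pairs with EIF3K in the complex, measured 226, 197 and 211 FPKM in MII oocytes and 161, 158 and 150.3 FPKM at the 8-cell stage, a smaller fall without overlap (-0.43, SE 0.14, limma adjusted p = 0.0388), which was called in 3 of 9 fits with a library dropped and missed without any MII library, 4-cell replicate 3 or 8-cell replicate 2 or 3. *EIF3D*, a subunit that can bind the cap of some mRNAs itself, measured 2.12, 5.13 and 1.46 FPKM in MII oocytes and 12.1, 6.09 and 7.85 FPKM at the 8-cell stage (1.38, SE 0.39, adjusted p = 0.0201). Without MII replicate 1, MII replicate 3 or 8-cell replicate 3 this call was lost, at log2 fold changes within 1.10 to 1.76, and it held in 2 of the 4 rescalings. *EIF3E*, *EIF3H*, *EIF3J*, *EIF3B*, *EIF3F* and *EIF3G* were called at neither stage.

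Within eIF4F, *EIF4E* rose at both stages. Against MII oocytes the log2FC was 1.51 in 4-cell embryos (SE 0.19, limma adjusted p = 0.000594) and 1.14 in 8-cell embryos (SE 0.19, limma adjusted p = 0.00164), and every embryo library exceeded every MII library. Between the stages the change was -0.36 (SE 0.19, adjusted p = 0.278). The 4-cell call held in all 9 fits without 1 library and all 4 rescalings, and the 8-cell call in all 9 and in 3 of 4.

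*EIF4E1B* measured 59.0, 70.0 and 97.6 FPKM at the 4-cell stage, and 303, 44.7 and 38.0 FPKM at the 8-cell stage. The 8-cell replicate 1 was far above every other library and the other two below every MII library. Set against MII oocytes, 4-cell embryos had a log2FC of -0.48 (SE 0.65, limma adjusted p = 0.619) and 8-cell embryos one of -0.36 (SE 0.65, limma adjusted p = 0.70). Dropping 8-cell replicate 1 gave -1.31 (limma adjusted p = 0.00218), and without replicate 2 or 3 it turned to 0.06 and 0.18. Between the 4- and 8-cell stages the log2FC was 0.12 (SE 0.65, limma adjusted p = 0.922), or -0.83 when 8-cell replicate 1 was dropped (limma adjusted p = 0.0663). Compared as log2(FPKM + 1), the same library was over 2-fold above the mean of the other 8-cell libraries for 9 members. These were *EIF2AK1*, *EIF2D*, *EIF3F*, *EIF4A1*, *EIF4B*, *EIF4E1B*, *EIF4G1*, *EIF4H* and *EIF5A*. Of the untreated 8-cell libraries it also had the lowest summed markers of 8-cell activation, 315 against 1087 and 482 FPKM. It had the highest sums of oocyte markers (3070 against 2504 and 2759 FPKM), cumulus and granulosa markers (130.2 against 87.1 and 94.1 FPKM) and sperm markers (21.6 against 8.09 and 11.7 FPKM), and the part of this in the results was not tested.

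The cap-binding relatives *EIF4E2*, which binds the cap without eIF4G and represses translation, and *EIF4E3* stayed between 2.61 and 10.4 FPKM and were not called at either stage. The inhibitors of eIF4E were low beside it. *EIF4EBP2* measured 3.01 to 6.93 FPKM, and *EIF4EBP1* and *EIF4EBP3* at most 1.25 and 2.47 FPKM, with 0 to 41 fragments a library.

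The scaffold genes of the family moved apart. *EIF4G3* measured 29.0, 27.3 and 21.4 FPKM in MII oocytes, 8.72, 9.84 and 10.5 FPKM at the 4-cell stage and 5.26, 6.03 and 7.31 FPKM at the 8-cell stage, and the stages did not overlap. A log2FC of -1.33 was found for 4-cell embryos (SE 0.20, limma adjusted p = 0.00142) and of -1.90 for 8-cell embryos (SE 0.20, limma adjusted p = 0.000173). Both calls held whichever library was dropped and in all 4 rescalings. *EIF4G2*, a relative that lacks the site for eIF4E, measured 197, 164 and 165 FPKM in MII oocytes and 253, 462 and 353 FPKM at the 8-cell stage (0.98, SE 0.23, adjusted p = 0.0080; 0.45 to 0.60 and not called when rescaled). *EIF4G1*, the main scaffold of most cells, was at 0.176 to 2.98 FPKM and was not called.

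Of the helicase and its partners, *EIF4A2* was 263 to 414 FPKM in all 9 untreated libraries and was not called. *EIF4A1* measured 80.7, 79.5 and 74.8 FPKM in MII oocytes, and 151, 42.1 and 44.6 FPKM at the 8-cell stage. *EIF4B*, which stimulates the helicase, measured 10.6, 14.9 and 12.7 FPKM in MII oocytes and 44.3, 18.1 and 24.0 FPKM at the 8-cell stage. The log2FC of 1.03 (SE 0.34, limma adjusted p = 0.0395) ran from 0.68 to 1.30 when single libraries were dropped, and missed the threshold without any MII library, 4-cell replicate 3, 8-cell replicate 3 or 8-cell replicate 1, its highest library. It passed under none of the rescalings.

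*EIF1* was 167, 205 and 231 FPKM at the 4-cell stage, below each MII library (log2FC -0.89, SE 0.21, limma adjusted p = 0.0123), and this call was lost without MII replicate 1. At the 8-cell stage it was 359, 362 and 241 FPKM and overlapped the MII oocytes. Its close relative *EIF1B* measured 126, 154 and 74.7 FPKM in MII oocytes and 210.4, 344 and 240.4 FPKM at the 8-cell stage (1.19, SE 0.30, adjusted p = 0.0133). It was called in all 9 fits without 1 library and under none of the rescalings (0.67 to 0.81).

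A rise that held under every setting run was that of *EIF5A2*, a relative of *EIF5A*, whose protein carries hypusine and helps the ribosome over difficult stretches. *EIF5A2* measured 7.22, 7.95 and 6.64 FPKM in MII oocytes, 34.9, 27.4 and 35.2 FPKM at the 4-cell stage and 40.7, 45.9 and 40.7 FPKM at the 8-cell stage. These are log2FC of 2.01 for the 4-cell embryos (SE 0.17, limma adjusted p = 0.000112) and 2.39 for the 8-cell embryos (SE 0.17, limma adjusted p = 2.5e-05). *EIF5A* itself measured 16.8, 14.8 and 24.1 FPKM in MII oocytes, 8.99, 31.8 and 8.61 FPKM at the 4-cell stage and 44.7, 9.74 and 19.7 FPKM at the 8-cell stage, and was not called. *EIF5* measured 139, 112 and 162 FPKM in MII oocytes, 316, 263 and 225 FPKM at the 4-cell stage and 270.4, 300.1 and 293 FPKM at the 8-cell stage, all embryo libraries being higher. The log2FC were 0.96 (SE 0.18, adjusted p = 0.00431) and 1.07 (SE 0.18, adjusted p = 0.00185), called under 0 and 3 of the 4 rescalings. *EIF5B* ranged from 222 to 341 FPKM and was not called.

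*EIF6*, which keeps the large ribosomal subunit from joining too early, measured 1.21, 9.09 and 1.71 FPKM in MII oocytes, 4.36, 13.1 and 8.43 FPKM at the 4-cell stage and 10.1, 92.0 and 19.0 FPKM at the 8-cell stage. The 8-cell libraries lay above the MII libraries and spread widely. The log2FC of 2.80 (SE 0.81, limma adjusted p = 0.0223) ranged from 1.92 to 3.49 as single libraries were dropped, and was not called without MII replicate 1, MII replicate 3 or 8-cell replicate 2, nor under 1 of the 4 rescalings.

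**Figure D3:**
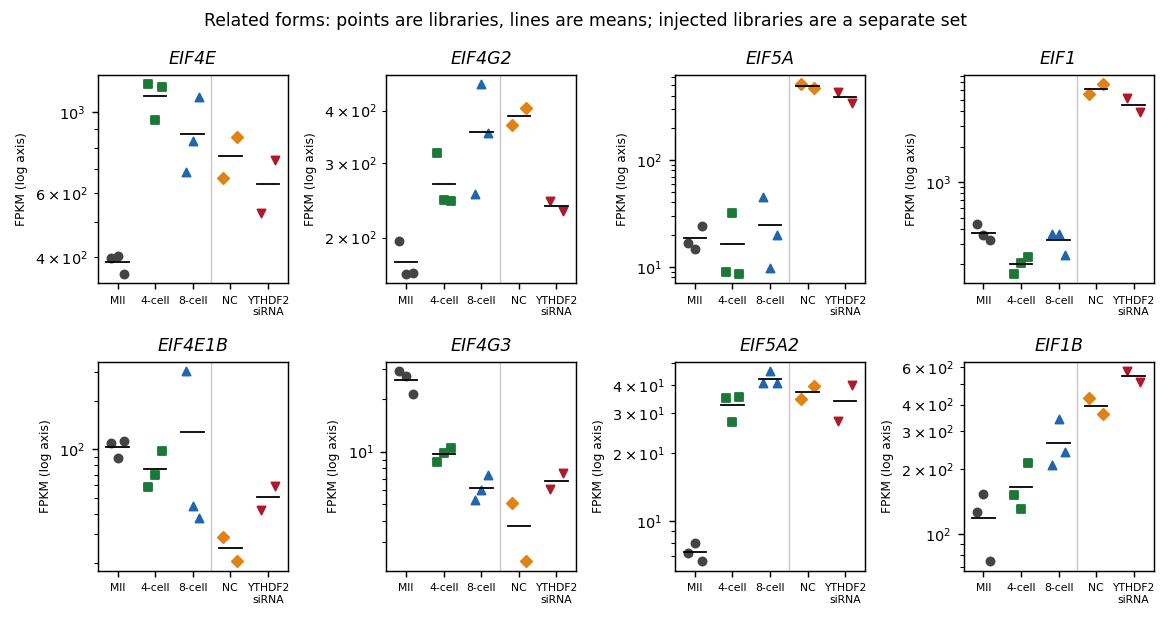
FPKM (log axes) of 4 pairs of related forms in each library (points) with group means (lines). *EIF4G2* rose and *EIF4G3* fell between MII oocytes and the 8-cell stage, *EIF5A2* rose while the *EIF5A* libraries overlapped, and 8-cell replicate 1 of *EIF4E1B* stands at 303 FPKM.

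From the 4- to the 8-cell stage, 0 members were higher (3.06% of all genes were) and 1 was lower, *EIF2S1* (5.24% of all genes were lower). At an unadjusted p under 0.05, 4 members were higher (10.8% of all genes) and 5 lower (13.5%) in limma, and 6 (11.6%) and 6 (12.9%) with voom, which called 0 higher by the adjusted p. Without 8-cell replicate 2, 1 member, *EIF2AK1*, was higher, where 1.95% of all genes were. The *EIF2S1* value ran from -1.06 to -0.70 as single libraries were dropped. The members' median was 0.11, beside 0.07 over all genes, and turned to -0.024 without 4-cell replicate 1 and to -0.0027 without 8-cell replicate 1.

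Ratios between forms within a library do not depend on how libraries are scaled. In all, 11 pairs were compared in 4 contrasts on log2 ratios, with 0.1 FPKM added to each level. The plain ratios printed here have nothing added. None of the 44 comparisons passed, with a smallest adjusted p of 0.293, since 3 against 3 libraries cannot go below an exact p of 0.1 and 2 against 2 not below 0.333. The level of *EIF4E1B* was 0.276, 0.220 and 0.313 of that of *EIF4E* in the MII libraries, and 0.0493, 0.0737 and 0.083 at the 4-cell stage (log2 difference -1.99, two-sided exact permutation p = 0.1, no overlap). At the 8-cell stage it was 0.443, 0.0537 and 0.0345. The ratio of *EIF5A2* to *EIF5A* was 0.429, 0.536 and 0.275 in MII oocytes, and above each of these in every embryo library, at 0.861 to 4.71 (log2 differences 2.57 and 2.36, exact permutation p = 0.1 each). *EIF1B* to *EIF1* was 0.286, 0.434 and 0.233 in MII oocytes and 0.585 to 0.998 in the embryo libraries (1.40 and 1.42, exact permutation p = 0.1 each). *EIF1* and *EIF1B*, *EIF4A1* and *EIF4A2*, and *EIF5A* and *EIF5A2* are close relatives, and their levels are uncertain because only uniquely mapped reads were counted and reads they share were left out.

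Other genes of translation were counted from fixed lists, to be read against the 24.7% higher and 6.42% lower of all genes at the 4-cell and the 27.3% higher and 10.0% lower at the 8-cell stage. Of 8 tested elongation genes, 2 were higher and 0 lower at the 4-cell stage and 2 higher and 1 lower at the 8-cell stage, with medians of 0.32 and 0.20. Of 7 tested genes of release and recycling, 3 and 4 were higher and 0 lower at either stage, with medians of 0.94 and 1.10. Among them *ETF1*, which reads stop codons, had log2FC of 2.39 and 3.07 (SE 0.45, limma adjusted p = 0.00376 and 0.000827), and its partner *GSPT1* had 1.54 at both. Of 20 tested genes that control initiation, 3 were higher and 1 lower at the 4-cell stage, and 5 higher and 3 lower at the 8-cell stage. *PPP1R15A* and *PPP1R15B* direct the removal of phosphate from eIF2, and *PPP1R15A* had -2.20 and -1.41 (adjusted p = 0.0071 and 0.041), while *PPP1R15B* had -0.29 (adjusted p = 0.509) and -1.95 (adjusted p = 0.00105). *PDCD4*, an inhibitor of eIF4A, had 1.37 in 4-cell embryos (adjusted p = 0.00107) and 0.12 in 8-cell embryos (adjusted p = 0.674).

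In *YTHDF2* siRNA embryos, the catalytic eIF2B subunit *EIF2B5*, the cap-binding repressor *EIF4E2*, the eIF3 subunit *EIF3G* and *EIF2S1* were lower than with NC siRNA. Of the 49 members, 46 were tested. *EIF2AK2*, *EIF2D* and *EIF4E3* were too low. By limma with an adjusted p under 0.05 over 11004 genes, 4 members were lower, against 5.92% of all genes, and 0 were higher, against 2.06%. At an unadjusted p under 0.05, 15 were lower (17.6% of all genes) and 3 higher (11.9%). The members' median log2 fold change was -0.46, beside 0.01 over all genes, with 33 of 46 below 0. Both knockdown libraries were below both NC libraries for 24 of the 46 members (52.2%), where 30.7% of all genes were, and above for 8 (17.4%), where 30.3% of all genes were. The libraries overlapped for 14. With 2 libraries a group, the count of lower members was 2 without NC replicate 1 (2.91% of all genes), 1 without NC replicate 2 (3.98%), 9 without *YTHDF2* siRNA replicate 1 (10.3%) and 2 without replicate 2 (2.21%), where the lone library is assumed to vary like the other group. Without a filter on low values, limma called 0 of all genes, while 14 members were lower (11.3% of all genes) and 2 higher (7.00%) at an unadjusted p under 0.05. Oocyte markers summed to 754 and 481 FPKM with NC siRNA and 978 and 1901 FPKM with *YTHDF2* siRNA, and the single gene *TMSB4X* held 4.00 and 5.35% against 9.87 and 12.6% of the summed FPKM. Summed cumulus and granulosa markers were higher in both *YTHDF2* siRNA libraries, as given above. Of all these markers, the sperm marker *ODF2* (limma adjusted p = 0.0497) and the oocyte marker *MOS* (limma adjusted p = 0.0466) were called higher with *YTHDF2* siRNA, and the 8-cell activation marker *KLF5* lower (limma adjusted p = 0.0397). The part of any of these in the differences between the groups was not tested.

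*EIF2B5* measured 7.12 and 6.76 FPKM with NC siRNA and 0.34 and 0.29 FPKM with *YTHDF2* siRNA. On the FPKM + 1 scale the log2FC was -2.59 (SE 0.41, limma adjusted p = 0.00409), beside a ratio of means of 0.0454, and it was called whichever library was dropped. All 5 eIF2B subunits were lower in both knockdown libraries, as were 30.7% of all genes. *EIF2B1* measured 33.8 and 37.0 against 23.2 and 27.8 FPKM, *EIF2B2* 25.1 and 23.2 against 13.6 and 5.54, *EIF2B3* 9.31 and 13.1 against 4.57 and 3.99, and *EIF2B4* 3.43 and 5.89 against 3.21 and 1.15. These 4 did not pass the test. *EIF2S1*, whose phosphorylated form blocks eIF2B, measured 32.0 and 40.2 FPKM against 8.56 and 14.5 FPKM (-1.60, SE 0.43, adjusted p = 0.0369), and lost its call without either NC library or *YTHDF2* siRNA replicate 1 (-1.95 to -1.25) and in 2 of the 3 rescalings. *EIF2S2* measured 88.4 and 152 against 55.0 and 45.8 FPKM, and *EIF2S3* 31.1 and 44.2 against 40.4 and 80.0 FPKM, neither of them called. Of the 3 tested kinases, *EIF2AK1* measured 5.88 and 4.37 against 11.9 and 10.9 FPKM, and *EIF2AK4* 6.55 and 3.91 against 9.55 and 12.4 FPKM. These 2 were higher in both knockdown libraries, as were 30.3% of all genes. *EIF2AK3* was lower in both, at 4.50 and 3.93 against 3.28 and 3.80 FPKM. None of the 3 passed the test.

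Among the eIF3 subunits, 9 of 12 were lower in both knockdown libraries and 1, *EIF3M*, was higher in both, beside 30.7% and 30.3% of all genes. By the adjusted p, 1 of the 12 was called. *EIF3G*, an RNA-binding subunit, measured 102 and 111 FPKM with NC siRNA and 36.4 and 23.7 FPKM with *YTHDF2* siRNA (-1.82, SE 0.41, limma adjusted p = 0.0186), and lost its call without either NC library or *YTHDF2* siRNA replicate 2 (-2.12 to -1.52) and in 1 of the 3 rescalings. *EIF3H* measured 428 and 399 against 189 and 197 FPKM, *EIF3I* 256 and 335 against 133 and 131 FPKM, and *EIF3D* 70.1 and 52.5 against 26.4 and 19.5 FPKM, none of them called. *EIF3K* and *EIF3L* overlapped between the groups. The median of the 12 was -0.94.

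Of the cap-binding proteins, *EIF4E2* measured 41.1 and 54.8 FPKM with NC siRNA and 14.7 and 8.24 FPKM with *YTHDF2* siRNA (-2.01, SE 0.43, limma adjusted p = 0.0163), and lost its call without NC replicate 2 or *YTHDF2* siRNA replicate 2 (-2.39 to -1.62). *EIF4E* measured 659 and 854 against 529 and 740.4 FPKM (-0.26, SE 0.37, adjusted p = 0.655), and the groups overlapped. *EIF4E1B* measured 29.0 and 20.5 FPKM against 42.1 and 59.8 FPKM, both knockdown libraries above both NC libraries (1.01, SE 0.42, adjusted p = 0.129). *EIF4EBP2* was lower in both, with 30.9 and 25.5 against 10.5 and 9.71 FPKM, and was not called. *EIF4G2* measured 370 and 406 against 244 and 232 FPKM, and *EIF4G3* 5.09 and 2.34 against 6.10 and 7.51 FPKM, with no overlap and no call. *EIF1* was the highest member in all 4 libraries, at 5573 and 6785 against 5137 and 3939 FPKM.

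**Figure D4:**
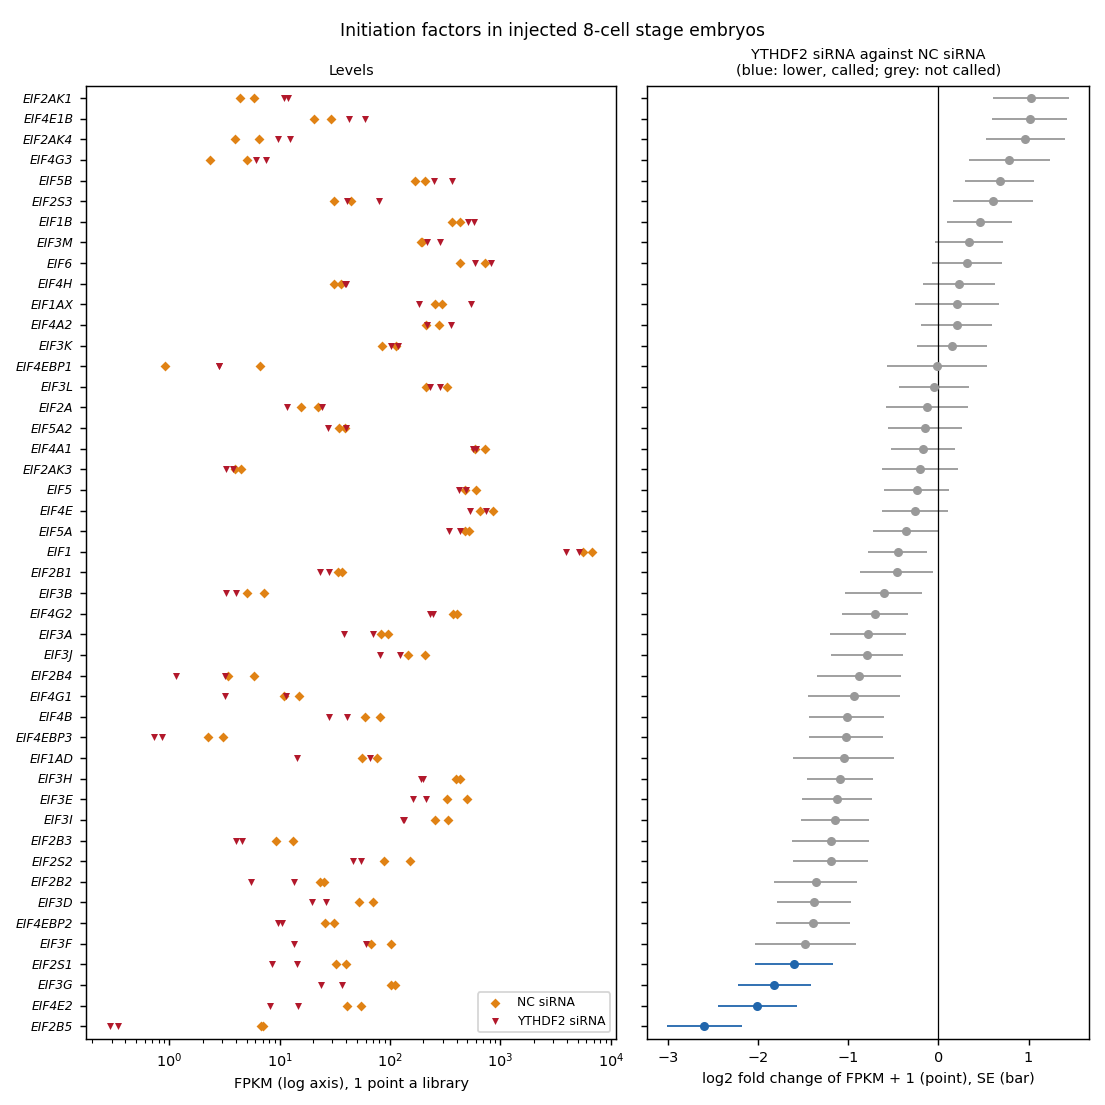
FPKM of the 46 tested members in each injected 8-cell stage library (left, log axis) and log2 fold change of FPKM + 1 with *YTHDF2* siRNA against NC siRNA (right, points with SE bars), ordered by fold change. The 4 blue points at the bottom, *EIF2B5*, *EIF4E2*, *EIF3G* and *EIF2S1*, passed the test, and 33 of 46 points are below 0.

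In the other lists of translation, where 2.06% of all genes were called higher and 5.92% lower, 1 of 9 tested elongation genes was higher and 2 lower with *YTHDF2* siRNA, 1 of 7 genes of release and recycling was lower, and 1 of 23 genes that control initiation was lower. The median log2FC of these lists was -1.31, -0.52 and 0.07, beside -0.46 for the initiation factors. Of the 9 elongation genes, 8 had an unadjusted p under 0.05, as did 3245 of all 11004 genes. *EEF1B2*, a subunit of the exchange factor of elongation factor 1, was higher (2.05, SE 0.46, limma adjusted p = 0.0188) and another subunit of it, *EEF1D*, lower (-2.12, SE 0.43, adjusted p = 0.0128). *DENR*, a recycling factor, was lower (-1.46, SE 0.40, adjusted p = 0.0395), as was *DOHH*, an enzyme that makes hypusine on eIF5A (-1.97, SE 0.50, adjusted p = 0.0307). The knockdown and the change from MII oocytes to the 8-cell stage share no library. Over the 41 members tested in both, their log2 fold changes had a Spearman rho of -0.061, beside 0.047 over 8348 genes. Of the 11 members higher at the 8-cell stage, 5 were lower in both knockdown libraries and 8 had a fold change below 0, beside 24 and 33 of the 46 members tested in the knockdown.

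The NC siRNA embryos and the untreated 8-cell stage embryos are of the same stage but stem from different studies, and their tables list 27129 and 21869 gene names, so their levels are set side by side without a test. Both NC libraries were above all 3 untreated 8-cell libraries for 30 of the 49 members and below for 11. Among the 48 members that averaged 1 FPKM or more in these groups, 30 were above and 11 below, where 36.1% of 10528 genes were above and 33.0% below. The median log2 ratio of mean FPKM + 1 was 1.36 over these 48 members and -0.04 over the 10528 genes. *EIF1* measured a mean of 6179 FPKM with NC siRNA and 321 FPKM in untreated 8-cell embryos. *EIF3F* measured 83.7 and 1.63 FPKM, *EIF1AD* 65.9 and 1.62, *EIF3G* 106 and 2.94, *EIF3K* 99.3 and 3.64, *EIF5A* 494 and 24.7, *EIF2B5* 6.94 and 0.466, and *EIF6* 576 and 40.4 FPKM, which with *EIF1* makes 8 members over 10-fold higher, where 14.2% of all genes were. The mRNAs that were lower included *EIF4E3* (0.395 and 6.54 FPKM), *EIF2D* (0.545 and 3.01 FPKM), *EIF4E1B* (24.8 and 129 FPKM) and *EIF3M* (194 and 438 FPKM), while *EIF4E* overlapped (757 and 873 FPKM). The same log2 ratio of FPKM + 1 had a Spearman rho of -0.392 with exon length over the 49 members, and across the 49 members the mean levels of the 2 sets had a rho of 0.729, against 0.944 between MII oocytes and untreated 8-cell embryos. The SD of log2 values over the eIF3 subunits was 1.51 to 2.03 in the injected libraries, below the untreated range.

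**Figure D5:**
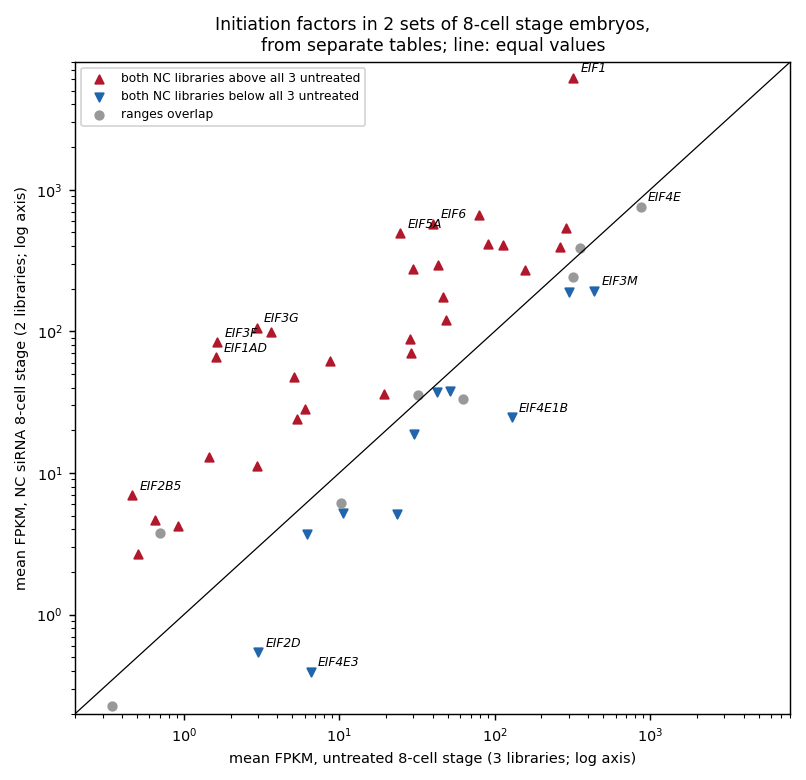
Mean FPKM of the 49 members in untreated 8-cell stage embryos (x axis, 3 libraries) and NC siRNA 8-cell stage embryos (y axis, 2 libraries), both on log axes, with a line at equal values. Most points, among them *EIF1* (321 and 6179 FPKM), lie above the line, and *EIF4E3*, *EIF2D*, *EIF4E1B* and *EIF3M* lie below it.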

How the data were processed

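Libraries were made with Smart-seq2. The authors aligned reads with HISAT2 to the goat genome (ARS1), discarded reads without a unique position, counted with HTSeq and deposited FPKM per gene and library, each library scaled on its own. The injected tables give 2 decimals. A name on several rows was not used. Whole fragments behind the untreated FPKM were recovered from their steps (tolerance 0.02) for 17918 genes. Genes averaging at least 1 FPKM were analysed as log2(FPKM + 1) by limma (version 3.58.1, R 4.3.3, trended eBayes), the 9 untreated libraries in 1 fit and the 4 injected libraries in another. A Benjamini-Hochberg adjusted p under 0.05 over all genes of the fit was called. This replaces the authors' rule of an unadjusted p under 0.05 and more than 2-fold, kept as an alternative. Fold changes on this scale understate those of low genes. Ratios within libraries were compared by two-sided exact permutation. A fold change with SE and adjusted p is given for each called member, and for *EIF4E* and *EIF4E1B* throughout. The members, lists and tests were chosen with earlier results of these data known. Gene coordinates were not used. Alternatives were another pseudocount, no filter, 3 rescalings, voom on fragments, a replicate block, each library left out, and the authors' rule.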

Additional observations from a re-analysis of the deposited data

How the results depend on the processing

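Counts of members against MII oocytes moved with the scaling. At the 4-cell stage, 4 members were higher with median-ratio rescaling, FPKM summing to the same total, quantile normalization or voom on recovered fragments, and 7 were lower with the last 3. Of all genes 9.59 to 12.6% were higher in these fits and 11.4 to 14.8% lower in the last 3. The members' median there was 0.075 with median-ratio rescaling, 0.072 with quantile normalization, and turned to -0.045 with FPKM summing to the same total and to -0.067 with voom. At the 8-cell stage, 3 members were higher with median-ratio rescaling or voom, 6 with FPKM summing to the same total and 5 with quantile normalization, and 5, 6 and 7 were lower with FPKM summing to the same total, quantile normalization and voom. Of all genes 13.4 to 16.1% were higher in these fits and 16.1 to 19.6% lower in the last 3. The median was 0.25 with no filter on low values, 0.21 with median-ratio rescaling, 0.18 with FPKM summing to the same total, 0.19 with quantile normalization and 0.070 with voom. From the 4- to the 8-cell stage, 1 member was higher by an unadjusted p under 0.05 and more than 2-fold (4.55% of all genes), and 0 were lower by that rule, with a pseudocount of 0.1 FPKM, no filter, median-ratio rescaling, FPKM summing to the same total, quantile normalization or the replicate block, where voom and the values as deposited gave 1. In the knockdown, 2 members were higher (9.48% of all genes) and 15 lower (15.3%) by the unadjusted rule, 0 lower with no filter, where no gene was called, and 2 lower with quantile normalization (1.91%), with medians of -0.36 under both of the latter, and *EIF4E* turned to 0.071 with quantile normalization. The cause of these moves was not tested.

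Without 1 library each, 6 to 11 members were higher and 1 to 4 lower in 4-cell embryos, 8 to 14 higher and 1 to 3 lower in 8-cell embryos, and 0 to 1 higher and 0 lower between the stages. Over all genes these shares were 16.5 to 30.4% and 3.37 to 10.2%, 19.2 to 28.6% and 6.92 to 13.7%, and 0.947 to 2.70% and 1.61 to 4.59%. The medians ran from 0.18 to 0.47, from 0.32 to 0.61 and from -0.024 to 0.12, the last turning to -0.024 without 4-cell replicate 1 and -0.0027 without 8-cell replicate 1. *EIF4E1B* ran from -1.31 to 0.18 at the 8-cell stage against MII oocytes, with 0.062 without 8-cell replicate 2, and from -0.83 to 0.65 against the 4-cell stage, with -0.037 without 4-cell replicate 1. In the knockdown, 0 were higher (0.454 to 4.37% of all genes) and 1 to 9 lower (2.21 to 10.3%), with medians of -0.61 to -0.37. Of 562 values of named members under alternatives, 429 counted as the same, 127 as weaker and 1 as stronger, and 5 turned direction.

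The replicate numbers of the titles did not pair the libraries, as same-numbered libraries of different stages deviated from their group means with correlations of -0.508 to 0.201. With the replicate block, 9 members were higher and 2 lower in 4-cell embryos, 10 and 2 in 8-cell embryos, and 3 were lower in the knockdown, where of all genes 20.6 and 5.12%, 23.5 and 8.86%, and 3.48% were. There the correlation was -0.152, and crossing the numbers, an alternative chosen after seeing the data, gave 13 lower members with the replicate block, with 12.8% of all genes lower.

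Members under about 1 FPKM rest on few fragments in the untreated libraries, and the depth of the injected libraries is unknown, so small differences of such members were not detectable.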
